A study of Mus musculus with 24 samples.

Results

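Caveolae are small flask-shaped pits of the plasma membrane. Caveolins and cavins build their coat, and EHD and PACSIN proteins shape and hold their neck. In most endothelium they carry cargo across the cell, whereas brain endothelium with an intact blood-brain barrier keeps this transcytosis low; the lipid transporter Mfsd2a holds caveolar vesicle formation down there, and Plvap, the protein of vesicle and fenestral diaphragms, is lost as the barrier matures. The 9 genes described here were taken by symbol: the caveolins Cav1 and Cav2, the cavins Cavin1, Cavin2 and Cavin3, the neck and membrane-bending proteins Ehd2 and Pacsin2, the diaphragm gene Plvap, and Mfsd2a. All 9 of 9 were among the 18091 genes of the wild-type table, and all 9 passed the filter on low values that left 12249 genes for testing.

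RNA came from primary brain microvascular endothelial cells (MBMECs) of wild-type C57B/6J mice, taken from cortex and midbrain microvessels. The cells were treated with puromycin for 48 h to remove other cell types. They were grown on transwell inserts, where the apical and the basal side can be treated apart. There were 5 groups of 4 libraries: vehicle, the S1P4 receptor agonist CYM50260 at 500 nM on the apical or on the basal side, and sphingosine-1-phosphate (S1P, a lipid mediator) at 50 nM on the apical or on the basal side, each for 24 h. The columns of both S1P groups are headed SP1 in the authors' table and were read as S1P, since no other label fits them. In the design text basal S1P counts as opening the barrier and the other 3 treatments as tightening it, so the comparisons ask whether opening and tightening treatments differ in the RNA of these transport genes. Each replicate pooled 12 mice and each sample 3 inserts. The sources used here do not tie single libraries to separate pools of mice. The p-values therefore cover the spread among these libraries, which may be technical in part. No library of the S1P4 knockout group was used here.

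Values are normalized counts, whole numbers that the authors scaled by 1 factor per library. Each library held 4.49 to 4.72 M of them, and steps in the values gave an estimate of 4.00 to 5.54 M reads per library. All 10 endothelial markers were present (summed level 16177 to 19789 per library, Cldn5 at 799 to 1028). The 5 listed microglia and macrophage markers in the table summed to 2 to 37, the 4 astrocyte markers to 5 to 23 and the 3 neuron and oligodendrocyte markers to 4 to 21. Vascular mural and fibroblast markers were present: the 11 pericyte markers summed to 304 to 3152, the 8 smooth muscle markers to 1228 to 3079 and the 6 fibroblast markers to 281 to 1078. Of the 8 fibroblast markers listed, Lum and Dpt were not in the table. A mean of at least 10 was reached by 9 pericyte, 7 smooth muscle and 5 fibroblast markers. Below it were the pericyte markers Kcnj8 (mean 3.4) and Higd1b (2.1), the smooth muscle marker Myocd (9.1) and the fibroblast marker Dcn (6.7). Abcc9 of the pericyte list had a mean of 12.4 and Pdgfra of the fibroblast list 22.1. Mmp2, also a listed fibroblast marker, was at 164 to 254 in every library. The part of these cell types in the levels below was not tested. In bulk RNA, fewer cells of a type and less RNA per cell cannot be told apart. The X-linked non-coding RNA Xist differed by replicate number and was at 0 or 1 in replicate 1 of every group. In vehicle it was at 1, 2251, 1063 and 190 in replicates 1 to 4. What this says about the pools of mice was not tested. In 4 libraries Xist did not match the other libraries of the same replicate number. It was at 1382 in agonist apical replicate 2, at 525 in S1P apical replicate 3, at 1417 in S1P apical replicate 4, and at 552 in the second library of basal S1P. Results are therefore also given without these 4.

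Cav1 (ENSMUSG00000007655, mm10 chromosome 6 from 17306335 to 17341452) and Cav2 (ENSMUSG00000000058, chromosome 6 from 17281185 to 17289115) are neighbours on the plus strand, with 17219 bases between the end of Cav2 and the start of Cav1. Cavin1 (ENSMUSG00000004044) spans 100956733 to 100970887 of chromosome 11, minus strand. Cavin2 (ENSMUSG00000045954) spans 51289126 to 51302960 of chromosome 1, plus strand. Cavin3 (ENSMUSG00000037060) spans 105480083 to 105482300 of chromosome 7, minus strand. Ehd2 (ENSMUSG00000074364) spans 15946958 to 15967567 of chromosome 7, minus strand. Pacsin2 (ENSMUSG00000016664) spans 83375607 to 83464606 of chromosome 15, minus strand. Plvap (ENSMUSG00000034845) spans 71497765 to 71511752 of chromosome 8, minus strand. Mfsd2a (ENSMUSG00000028655) spans 122946850 to 122961188 of chromosome 4, minus strand. The 250 bases before the annotated start of both, of Cavin2, the coat gene that varied apart from them, and of Mfsd2a are shown, because their levels over the libraries are compared below. RefSeq held such windows on GRCm38.p6 for 7 of the 9 genes, all except Cavin3 and Plvap. Capitals mark a GC box (GGGCGG on either strand) in Cav1 and Cav2. The first windows of Cavin1, Ehd2 and Pacsin2 also held a GC box. The further windows of Cav1 and Pacsin2 and the window of Mfsd2a held none. Capitals also mark a TCF/LEF motif (CTTTGA on either strand, the core that the transcription factors of Wnt and beta-catenin signalling bind) in Mfsd2a.
Cav1, chr6:17306085-17306334, plus strand: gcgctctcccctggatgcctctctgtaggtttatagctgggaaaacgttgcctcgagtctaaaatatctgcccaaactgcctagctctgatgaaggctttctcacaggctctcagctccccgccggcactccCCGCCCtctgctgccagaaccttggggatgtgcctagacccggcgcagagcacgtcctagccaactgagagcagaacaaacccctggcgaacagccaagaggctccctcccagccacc
Cav2, chr6:17280935-17281184, plus strand: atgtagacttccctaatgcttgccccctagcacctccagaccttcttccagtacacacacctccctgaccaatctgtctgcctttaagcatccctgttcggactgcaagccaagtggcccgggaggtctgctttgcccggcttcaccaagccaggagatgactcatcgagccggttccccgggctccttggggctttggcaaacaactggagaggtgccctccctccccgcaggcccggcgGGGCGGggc
Cavin2, chr1:51288876-51289125, plus strand: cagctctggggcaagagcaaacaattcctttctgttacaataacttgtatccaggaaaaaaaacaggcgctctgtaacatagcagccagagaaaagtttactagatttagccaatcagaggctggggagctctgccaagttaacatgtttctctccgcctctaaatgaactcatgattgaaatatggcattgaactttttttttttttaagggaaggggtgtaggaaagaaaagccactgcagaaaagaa
Mfsd2a, chr4:122961189-122961438, minus strand: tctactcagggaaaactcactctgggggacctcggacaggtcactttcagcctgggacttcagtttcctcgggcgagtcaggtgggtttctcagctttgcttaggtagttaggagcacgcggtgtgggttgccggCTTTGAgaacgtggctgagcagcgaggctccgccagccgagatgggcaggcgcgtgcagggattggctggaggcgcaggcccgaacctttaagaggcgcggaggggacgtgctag

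The GC box of Cav1 began 118 bases before the start and that of Cav2 9 bases before it. The Cavin2 window held no GC box, no TCF/LEF motif and no ETS core (CCGGAA on either strand). The TCF/LEF motif of Mfsd2a began 115 bases before the start. Of all 32851 promoter windows cut to these 250 bases, 32.7% held a GC box, 13.8% a TCF/LEF motif and 12.0% an ETS core. The matches describe these letters and are not measured binding.

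Per kilobase of exon, where levels of different genes can be set side by side, the coat genes were among the highest values of the table and Mfsd2a was low. The largest value of any gene was only 6171 to 8346 per library, and Actb, usually a very abundant RNA, had a mean of 1390, below Cav1 at 2087. Values of abundant genes may therefore be compressed, and the sources used here do not say whether duplicate reads were removed. Such compression would understate levels of the coat genes, and could alter their order and percentiles per kilobase. It could also change their differences and spread in either direction, because near-constant reads would leave normalized counts that follow the library factor. The mean over the 20 libraries was 606 ± 59.3 normalized counts per kb for Cav1 and 604 ± 43.0 for Cavin1, the cavin that together with Cav1 is needed to form caveolae (SD, n = 20). Both stood at percentile 99.9 of the genes tested. Ehd2, an ATPase of the caveolar neck, followed at 552 ± 37.1, Cav2, the partner of Cav1 in caveolin oligomers, at 405 ± 45.1, Cavin2, which shapes the caveolar membrane, at 384 ± 30.1 and Cavin3, which links caveolae to signalling proteins, at 325 ± 25.7 (SD, n = 20). Pacsin2, an F-BAR protein that bends the caveolar membrane, was at 162 ± 9.98 and Plvap at 160 ± 64.9, and Mfsd2a lay at 17.6 ± 5.25, at percentile 19.9 (SD, n = 20).

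Not every neighbour in this order was apart. Cav1 was above Cavin1 in 7 of 20 libraries, Cav2 above Cavin2 in 11, and Pacsin2 above Plvap in 9. Cavin1 was above Ehd2, and Ehd2 above Cav2, in 20 of 20 libraries, although the ranges over libraries overlapped. The ranges of Cavin3 and Pacsin2, and those of Plvap and Mfsd2a, did not overlap.

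**Figure D1:**
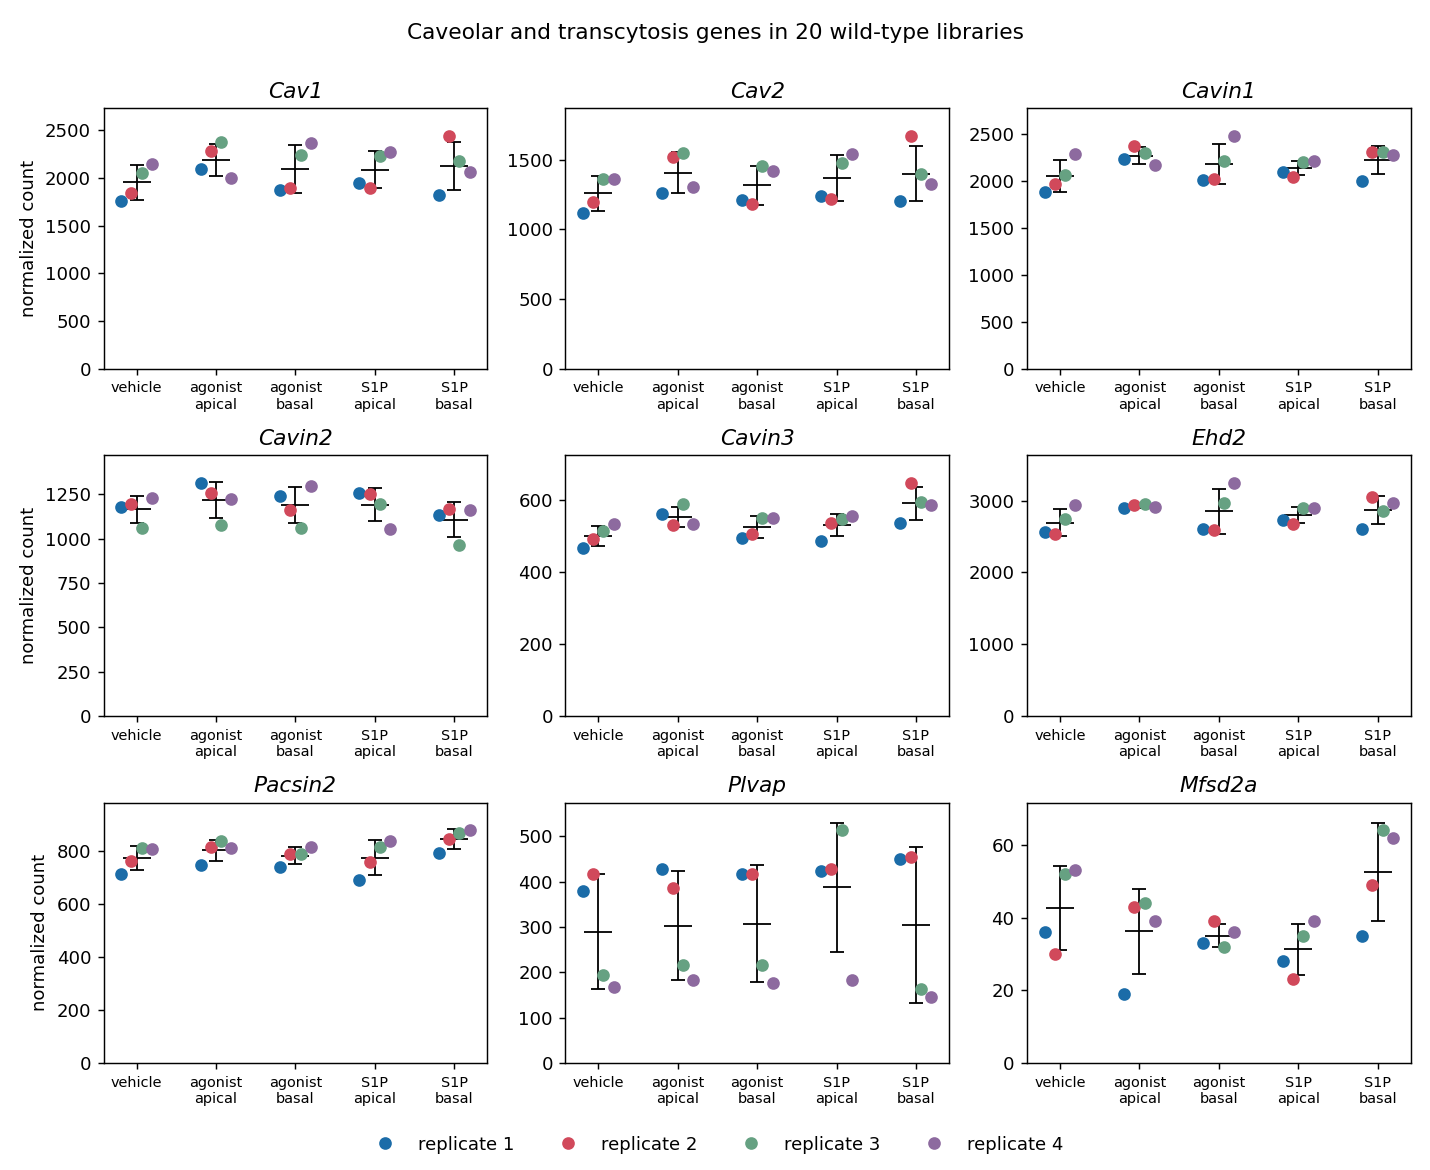
Normalized counts of the 9 genes in the 20 wild-type libraries, by treatment group (horizontal axis), with the replicate number as colour and black bars for the group mean ± SD (n = 4). Plvap is at 380 to 454 in replicates 1 and 2 of every group and at 145 to 217 in replicates 3 and 4, except for 513 in S1P apical replicate 3.

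The caveolins did not differ between any treatment and vehicle past the threshold (limma on log2(value + 1), Benjamini-Hochberg adjusted p under 0.05). Vehicle replicates 1 to 4 held 1760, 1845, 2050 and 2148 normalized counts of Cav1. Cav1 was at 2096, 2279, 2372 and 1994 with apical agonist and at 1869, 1890, 2242 and 2361 with basal agonist. It was at 1949, 1895, 2227 and 2270 with apical S1P and at 1822, 2435, 2178 and 2059 with basal S1P. Every treated group overlapped vehicle, and the 95% intervals of the log2 difference from vehicle ran from -0.04 to 0.37 for apical agonist, -0.11 to 0.30 for basal agonist, -0.11 to 0.30 for apical S1P and -0.09 to 0.33 for basal S1P. Cav2 ranged from 1117 to 1363 in vehicle and from 1180 to 1668 in the treated libraries, with log2 differences of 0.06 to 0.16 from vehicle (SE 0.11).

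Of the cavins, Cavin3 had the lowest p of the 9 genes with basal S1P, and it did not pass over all genes. It was at 467, 490, 513 and 532 in vehicle and at 535, 646, 593 and 587 with basal S1P, from 501 ± 28.2 to 590.2 ± 45.4 (SD, n = 4 each). All 4 basal S1P libraries lay above all 4 vehicle libraries, by 3 counts between the nearest. The log2 difference was 0.24 ± 0.07 (SE, 95% interval 0.10 to 0.38; limma adjusted p = 0.717). Groups were separate in this way, in either direction, in 2.11% of all genes tested, and Cavin3 was the 1 of the 9 genes for which they were.

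The other groups of Cavin3 lay between. It was at 561, 529, 589 and 534 with apical agonist, at 494, 505, 551 and 549 with basal agonist, and at 486, 535, 546 and 555 with apical S1P, all overlapping vehicle. Apical agonist differed from vehicle by 0.14 ± 0.07 on the log2 scale (SE; limma adjusted p = 1.00). Basal S1P overlapped apical S1P, with a log2 difference of 0.15 ± 0.07 (SE; limma adjusted p = 0.999), and against the 3 barrier-tightening treatments together it was 0.14 ± 0.05 (adjusted p = 0.778). Without the 4 libraries that did not match by Xist, the difference between basal S1P and vehicle was 0.19 ± 0.07 (SE; limma adjusted p = 0.999).

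Cavin1 and Cavin2 overlapped between groups. Cavin1 was at 1883 to 2283 in vehicle and at 1992 to 2471 in the treated libraries; its largest log2 difference was 0.15 ± 0.07 (SE), for apical agonist against vehicle (limma adjusted p = 1.00). Cavin2 was at 1176, 1197, 1059 and 1232 in vehicle and at 1136, 1168, 962 and 1164 with basal S1P, a log2 difference of -0.08 ± 0.08 (SE; limma adjusted p = 0.799) that was -0.01 without S1P basal replicate 3, the library at 962. Cavin2 was the 1 coat gene whose mean was lower with basal S1P than with vehicle, within the spread between libraries.

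The neck and membrane-bending genes did not pass either. Ehd2 was at 2530 to 2942 in vehicle and at 2593 to 3241 in the treated libraries, with log2 differences from vehicle of 0.06 to 0.12 (SE 0.07). Pacsin2 was at 714, 764, 812 and 809 in vehicle and at 793, 845, 870 and 879 with basal S1P, so that 3 of 4 basal S1P libraries lay above every vehicle library. Its log2 difference was 0.13 ± 0.06 (SE; limma adjusted p = 0.756). In a fit with replicate number as a block the SE was 0.04, and Pacsin2 did not pass there either.

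Plvap varied more than any other of the 9 genes, and its values followed the replicate number rather than the treatment. It was at 380, 416, 195 and 168 in vehicle replicates 1 to 4, at 427, 385, 217 and 183 with apical agonist and at 418, 418, 216 and 176 with basal agonist. It was at 424, 429, 513 and 183 with apical S1P and at 451, 454, 164 and 145 with basal S1P. Replicates 1 and 2 of every group lay between 380 and 454, and replicates 3 and 4 between 145 and 217 apart from S1P apical replicate 3.

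Replicate number accounted for 77.7% of the variance of log2 Plvap over the 20 libraries and treatment group for 6.69%. The median over all tested genes was 42.9% and 13.9%, and Plvap stood at percentile 97.5 of the share held by replicate number. With this spread, the 95% intervals for Plvap were wide: -0.86 to 1.02 for apical agonist, -0.85 to 1.03 for basal agonist, -0.51 to 1.37 for apical S1P and -0.96 to 0.92 for basal S1P, as log2 differences from vehicle. Without the 4 libraries that did not match by Xist, the difference between basal and apical S1P was -0.95 on the log2 scale. It was -0.45 ± 0.45 (SE) with them, and -0.16 without S1P basal replicate 4 alone. Leaving out the 4 kept replicates 1 and 2 of apical S1P against replicates 1, 3 and 4 of basal S1P. Treatment and replicate number are therefore mixed in the -0.95. A fit with replicate number as a block, which sets aside differences between the numbers, gave an SE of 0.195. The log2 differences stayed at 0.43 for apical S1P against vehicle and -0.45 for basal against apical S1P. Against vehicle they were -0.02 for basal S1P, 0.08 for apical agonist and 0.09 for basal agonist. Both comparisons with apical S1P include its replicate 3, and the labels do not pair the libraries by number. Plvap passed in none of these fits.

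Markers of other cells differed between the same libraries. The 6 fibroblast markers summed to 825 to 1078 in replicates 1 and 2, to 281 to 372 in replicates 3 and 4 other than S1P apical replicate 3, and to 970 in that library. The 11 pericyte markers summed to 1834 to 3152, 304 to 1420 and 2015 in the same sets. The 5 choroid plexus epithelium markers, genes of a tissue whose vessels are fenestrated, summed to 104 to 166, 15 to 71 and 43. Of these, Aqp1, Kl and Ttr had means of 39.7, 27.2 and 17.9, while Otx2 and Folr1 were at 2 or less in each library. The endothelial sums overlapped, at 16324 to 18646, 16177 to 19789 and 17469. Their part in the level of Plvap was not tested. Of 10312 genes with a mean of at least 50, the 3 whose log2 values were most like those of Plvap over the 20 libraries were Lox, a collagen cross-linking enzyme (Pearson r = 0.950), Bgn, a matrix proteoglycan (r = 0.947), and Col3a1, a fibrillar collagen that is also among the fibroblast markers (r = 0.946). These values rest on the distance between the same sets of libraries.

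**Figure D2:**
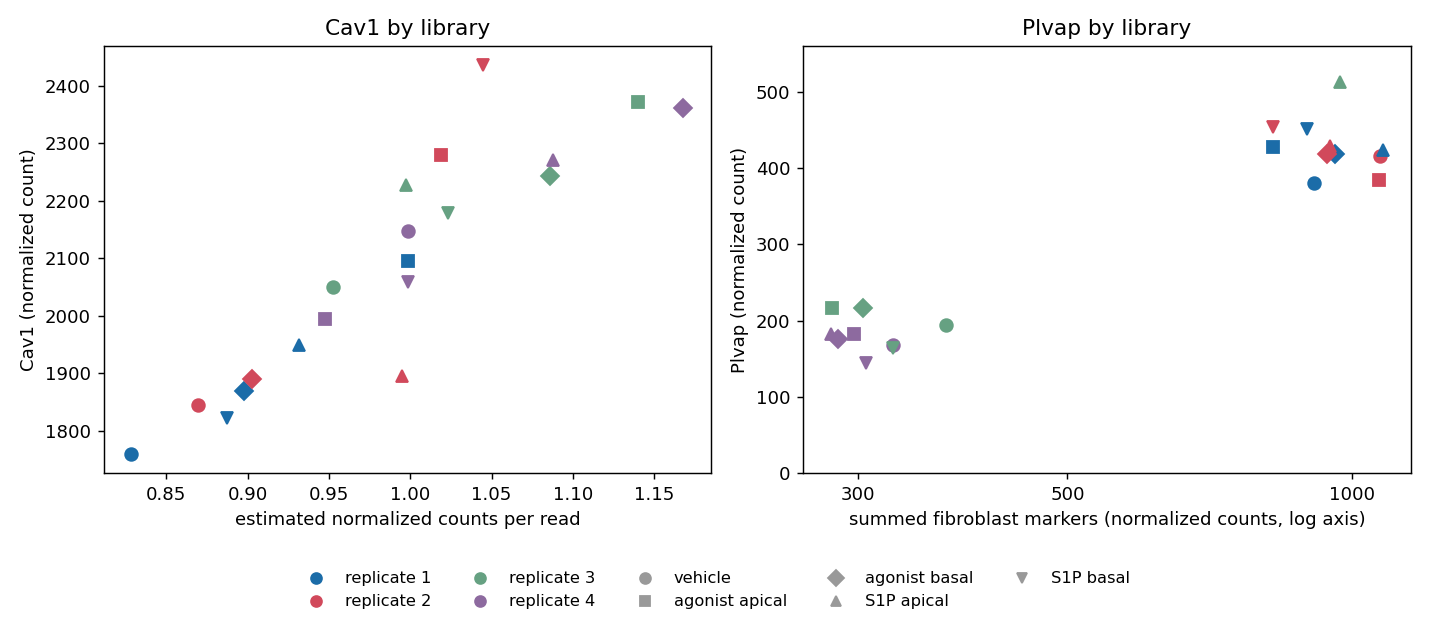
Left, Cav1 in each library (normalized count) against the estimated normalized counts that 1 read is worth; right, Plvap against the summed fibroblast markers (log axis). Colour gives the replicate number and shape the group; Cav1 is higher in libraries where a read is worth more, and no Plvap value lies between 217 and 380.

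Mfsd2a, the gene of the lysophosphatidylcholine transporter that limits vesicle formation, was low in all libraries. It was at 36, 30, 52 and 53 normalized counts in vehicle, at 19, 43, 44 and 39 with apical agonist and at 33, 39, 32 and 36 with basal agonist. It was at 28, 23, 35 and 39 with apical S1P and at 35, 49, 64 and 62 with basal S1P. By replicate number, Mfsd2a ranged from 19 to 49 in replicates 1 and 2 and from 32 to 64 in replicates 3 and 4. Basal S1P had the highest mean, 52.5 ± 13.4, and apical S1P the lowest, 31.2 ± 7.14 (SD, n = 4 each), and these groups overlapped in the basal library at 35.

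The log2 difference of Mfsd2a between basal and apical S1P was 0.72 ± 0.27 (SE, 95% interval 0.16 to 1.28), and it did not pass over all genes (limma adjusted p = 0.999). Against the 3 barrier-tightening treatments together it was 0.60 ± 0.22 (limma adjusted p = 0.671), and against vehicle 0.29 ± 0.27 (adjusted p = 0.768). The difference from vehicle was 0.14 without vehicle replicate 2 and 0.47 without S1P basal replicate 1. Without the 4 libraries that did not match by Xist, the difference between basal and apical S1P was 1.00 ± 0.35 (SE; limma adjusted p = 0.701), with 2 apical libraries left. These were replicates 1 and 2, set against replicates 1, 3 and 4 of basal S1P. Over all groups Mfsd2a had means of 30.2, 36.8, 45.4 and 45.8 in replicates 1 to 4. Treatment and replicate number are therefore mixed in the 1.00. The 3 genes most like Mfsd2a over the 20 libraries were Cnnm4 (r = 0.884), a membrane protein of magnesium transport, Pik3cb (r = 0.863), a catalytic subunit of PI3-kinase, and Mettl27 (r = 0.845).

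**Figure D3:**
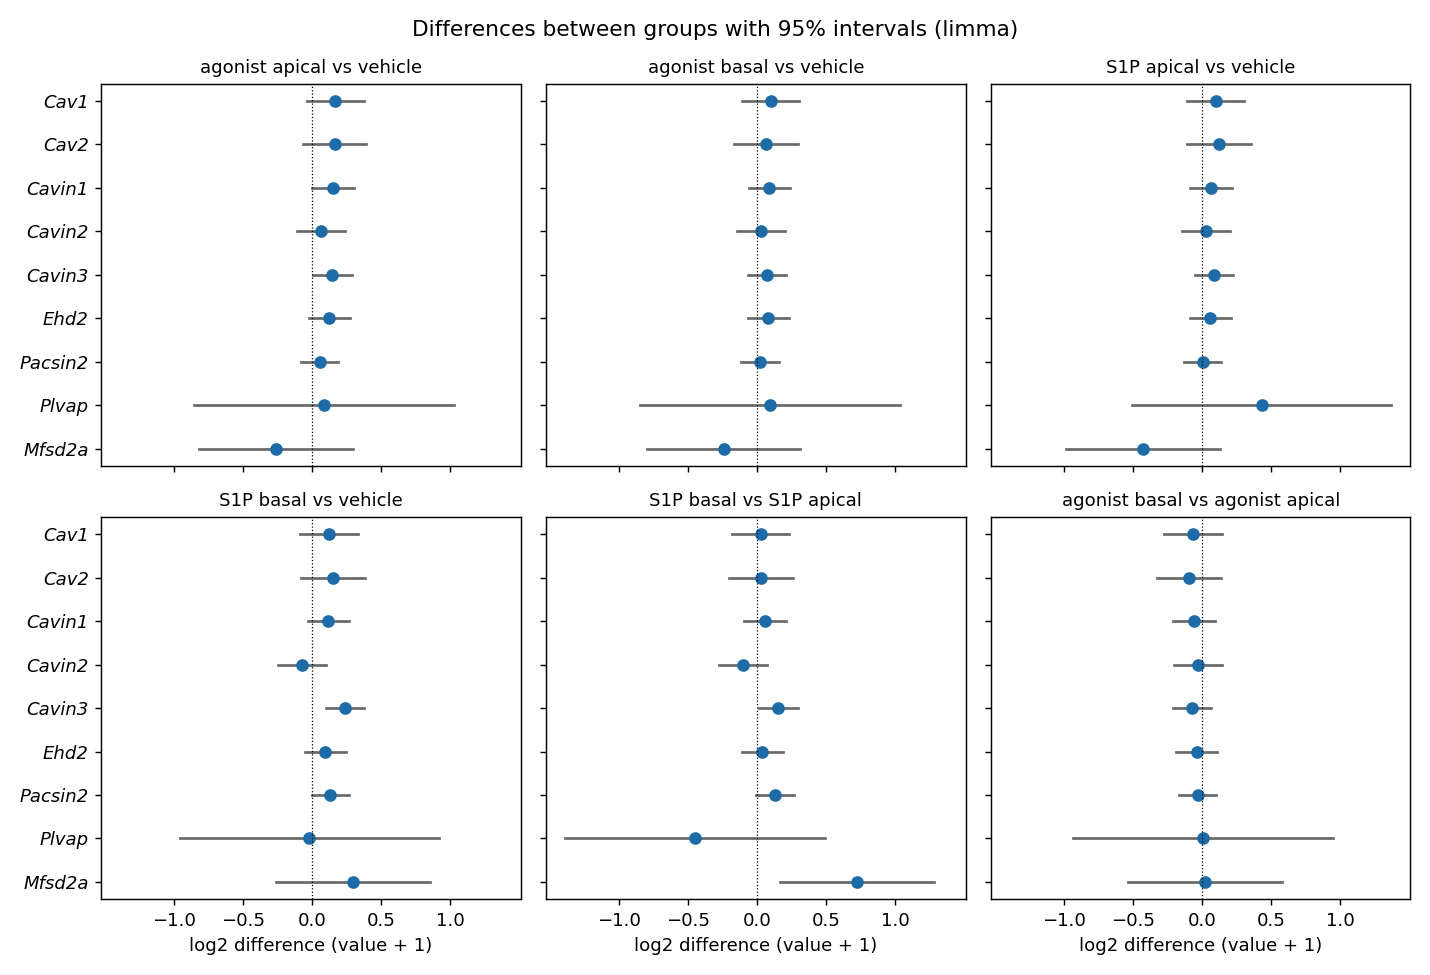
Log2 difference of each of the 9 genes in 6 comparisons, with unadjusted 95% intervals from the limma fit over 20 libraries. The intervals of the coat genes, whose values may be compressed, are narrower than those of Plvap and Mfsd2a. Those that leave out 0 are Cavin3 in 3 panels and Mfsd2a in 1, and none passes over all genes.

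Over the whole set, 0 of 9 genes were called in any comparison. For apical agonist against vehicle 0% of the 12249 genes were called, for basal agonist 0%, for apical S1P 0% and for basal agonist against apical agonist 0%. For basal S1P against vehicle and against apical S1P 0.0245% were called in each, for basal S1P against the 3 tightening treatments 0.049%, and in the test of any difference among the 5 groups 0.0245%. The number of the 9 genes at an unadjusted limma p under 0.05 was 1, 0 and 0 for apical agonist, basal agonist and apical S1P against vehicle, and 1 for basal S1P against vehicle. It was 2 for basal against apical S1P, 0 for basal against apical agonist and 2 for basal S1P against the tightening treatments. The share over all genes at that p was 1.09%, 0.31%, 0.996%, 5.22%, 4.01%, 0.498% and 5.63% in the same order.

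The means of the log2 values of most of these genes were higher in treated cells than in vehicle, in 8 of 9 cases for apical agonist, basal agonist and apical S1P and in 7 of 9 for basal S1P, with median log2 differences of 0.12, 0.07, 0.06 and 0.12. Without the 4 libraries that did not match by Xist, the counts were 7, 8, 5 and 7 of 9. Apical S1P then held replicates 1 and 2 only. Over all tested genes 48.5%, 52.5%, 49.8% and 50.0% had higher means and the median was 0.00 in each. All 4 comparisons share the vehicle libraries, so they are not separate evidence. Nor are the genes, since Cav1, Cav2, Cavin1, Cavin3, Ehd2 and Pacsin2 varied together over the libraries (Pearson r of 0.588 to 0.954). Sparc, Actb and Capns1 also had higher means in each treated group than in vehicle. They were picked as the genes most like Cav1 over these same libraries, so this follows from the choice and is not separate evidence. By estimate, a read in vehicle stood for 0.8285 to 0.9985 normalized counts. It stood for 0.9475 to 1.14 with apical agonist, 0.898 to 1.168 with basal agonist, 0.9315 to 1.088 with apical S1P and 0.8875 to 1.045 with basal S1P. The part of these library factors in the higher means was not tested. With quantile normalization, which gives every library the same distribution, Cavin1 with apical agonist was at 0.07 and Ehd2 at 0.03, against 0.15 and 0.12 as deposited, while Cavin3 with basal S1P stayed at 0.24.

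The coat and neck genes varied together over the libraries. Pearson's r of the log2 values over the 20 libraries was 0.954 for Cav1 and Cav2, 0.896 for Cav1 with both Cavin1 and Ehd2, 0.945 for Cavin1 and Ehd2, 0.754 for Cav1 and Cavin3 and 0.641 for Cav1 and Pacsin2. Cavin2 stood apart from this set, with r = -0.193 to Cav1, 0.0018 to Cavin1 and -0.317 to Cavin3. Plvap had r = -0.381 to Cav1 and Mfsd2a 0.340. These are descriptions over libraries that share treatments and library factors.

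Cav1 also followed measures of the whole library. Its r with the estimated normalized counts per read was 0.905, and that of Cavin2 was -0.170. Divided by that factor, Cav1 ranged from 1905 to 2330 estimated reads with a coefficient of variation of 4.13%, against 9.78% for the normalized counts, and Actb, a common reference gene, had 4.00% against 9.13%. The coefficient was smaller in estimated reads for Cav2, Cavin1, Cavin3, Ehd2 and Mfsd2a too. It was larger for Cavin2, at 12.6% against 7.84%, for Pacsin2, at 7.31% against 6.15%, and for Plvap, at 44.4% against 40.5%. Compression of abundant genes would also give near-constant reads, which was not tested. The genes most like Cav1 among the same 10312 were Sparc, a matrix glycoprotein (r = 0.987), Actb (r = 0.983) and Capns1, a calpain subunit (r = 0.983).

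**Figure D4:**
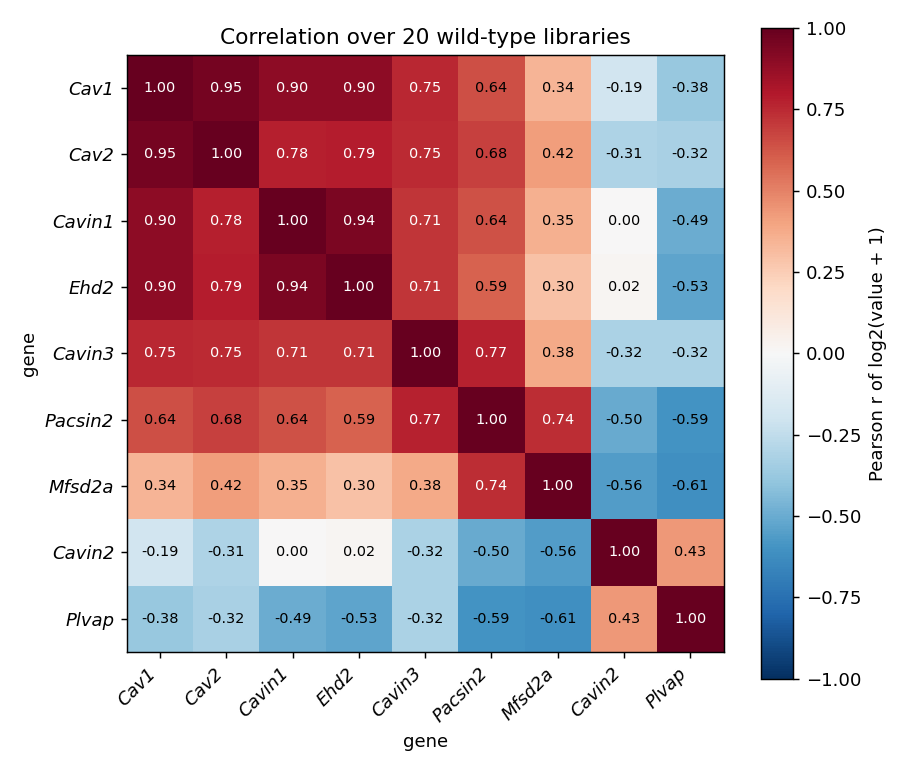
Pearson correlation of log2(value + 1) between the 9 genes over the 20 wild-type libraries, with both axes listing the genes. Cav1, Cav2, Cavin1, Ehd2, Cavin3 and Pacsin2 form a block with r of 0.588 to 0.954, Mfsd2a is positive to each of them at 0.296 to 0.742, and Plvap is negative to each.

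Related transport genes were read from 3 lists of 45 genes, of which 43 were in the table and 40 were tested; 0 of 40 were called in any comparison. Among 10 tested further caveolar, neck and signalling genes, Nos3, the endothelial nitric oxide synthase that Cav1 binds, had the smallest p in the test of any difference. It was at 1777, 1770, 1746 and 1919 in vehicle, at 1881, 1805, 1694 and 1737 with apical S1P and at 2014, 1896, 2055 and 2266 with basal S1P. All basal libraries lay above all apical S1P libraries, as in 1.4% of all genes in either direction, with a log2 difference of 0.21 ± 0.06 (SE; limma adjusted p = 0.722). Flot2, a flotillin of membrane microdomains, was at 397 to 414 with apical agonist and at 423 to 479 with basal agonist. These groups were separate, as in 0.433% of all genes in either direction, with a log2 difference of 0.15 ± 0.06 (SE; limma adjusted p = 1.00). Ehd4, a relative of Ehd2, was at 1372 to 1538 in vehicle and at 1492 to 1659 with apical agonist.

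Among 17 tested genes of the clathrin coat and of receptors for transcytosis, those with the smallest p included Igf1r, the insulin-like growth factor receptor, and Ap2s1, an adaptor subunit of clathrin pits. Igf1r had a log2 difference of -0.16 ± 0.06 (SE) between basal S1P and the tightening treatments (limma adjusted p = 0.632). It was at 1462 to 1586 with basal S1P and at 1588 to 1765 with apical S1P. Groups were separate in this comparison in 1.4% of all genes. Ap2s1 was at 0.25 ± 0.09 for basal S1P against vehicle (limma adjusted p = 0.756). Among 13 genes of vesicle docking and fusion the smallest p belonged to Rab11a and Rab5a, GTPases of recycling and early endosomes, and Vamp2, a vesicle SNARE. Rab11a was at 0.16 ± 0.07 for apical S1P against vehicle and Vamp2 at -0.25 ± 0.14 for basal S1P against vehicle (limma adjusted p = 1.00 and 0.756). Rab5a was at 360 to 407 in vehicle and at 377 to 421 with basal S1P.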

How the data were processed

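Libraries were stranded mRNA libraries from 100 ng of RNA, per the labels' protocols. The submitters' processing notes name Trimmomatic 0.38, STAR 2.7.3a, featureCounts 1.6.5, DESeq2 1.26.0 and mm10, with no role or order. The authors deposited a signal per gene: whole-number normalized values, read from the values as gene counts over a library factor, because some integers are skipped or occur too often at even spacing. The reads were not recovered, so no count model was used. What 1 read is worth was estimated as the factor that best fitted these steps. Genes with a mean of at least 10 over 20 libraries were fitted as group means of log2(value + 1) with limma 3.58.1 (R 4.3.3, mean-dependent prior variance). The Benjamini-Hochberg adjustment ran over all 12249 genes, with calls made under an adjusted p of 0.05. Fold changes on this scale understate the change of low genes, and intervals are not adjusted. Exon lengths are from GENCODE M21, whose start and end 99.1% of genes share. The fit was tested on simulated data with independent noise in each library and no effect of replicate number. The changes planted there were larger than any difference of the 9 genes in the main fit. The test therefore does not gauge power for these genes. The 9 genes, the related lists and the markers were chosen with earlier results of these data known. Named outside the 9 were any called gene of the related lists, else the 3 with the smallest p in the test of any difference, and the 3 genes most like Cav1, Plvap and Mfsd2a. A gene that this rule names is not reported here. Alternatives were pseudocount, filter, scaling, block, prior variance, samples in the fit and left-out libraries.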

Additional observations from a re-analysis of the deposited data

Results flagged for a closer look

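In 2 of the 45 combinations of gene and group, 1 library lay far from the other 3; chance alone gives such a gap in about 1 group in 20. With basal S1P, Cavin1 was at 1992 in replicate 1 against 2268 to 2305 in the others, a gap of 0.882 of the group's range. Cavin2 with basal S1P was at 962 in replicate 3 against 1136 to 1168, a gap of 0.845. The difference between the side effect of S1P and that of the agonist was tested for all 9 genes, and 0 passed (limma; Cavin3 0.23 ± 0.09 on the log2 scale, unadjusted p = 0.0258, adjusted p = 1.00).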

How the results depend on the processing

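Over 31 alternatives 0 of the 9 genes and 0 of the related transport genes were called in any comparison, and of 1946 recomputed log2 differences of the 9 genes 1879 kept their sign and 11 moved by more than 1 SE. Cavin3 with basal S1P against vehicle stayed between 0.19 and 0.28 (adjusted p at least 0.0690), and Mfsd2a between basal and apical S1P between 0.59 and 1.00 (adjusted p at least 0.129). Both smallest adjusted p came from the replicate block. The 1.00 of Mfsd2a came from the fit without the 4 libraries that did not match by Xist, where these groups held unlike replicate numbers. The replicate numbers do not pair the samples by the labels, and 36 of 40 pairs of libraries with the same number had deviations that correlated above 0.1 (lowest -0.345); 15 of 20 libraries correlated best with their own number. With the block, 0 of the 9 genes were called, while the count over all genes for basal S1P against vehicle was 47 instead of 3, against apical S1P 83 instead of 3, against the tightening treatments 137 instead of 6, and 18 instead of 3 for any difference. With a mean of at least 50, Mfsd2a was not tested. Without the 4 libraries that did not match by Xist, Cav1, Cav2 and Pacsin2 for apical S1P against vehicle turned from 0.10, 0.12 and 0.0012 to -0.02, -0.03 and -0.09. Apical S1P then held only replicates 1 and 2, against replicates 1 to 4 of vehicle. Over all groups the means of these genes were lower in replicates 1 and 2 than in replicates 3 and 4. With quantile normalization, Cav1 and Ehd2 for basal against apical S1P turned to -0.02 each. The cause was not tested. Mfsd2a rests on 19 to 64 counts per library.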
